A study of Homo sapiens with 16 samples.

Results

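Natural antisense transcripts are RNAs made from the opposite DNA strand of another gene, and those with their own symbol are named after that gene with the suffix -AS1. Described here are the 229 rows of the deposited count table whose symbol ends in -AS1 and whose raw count averaged at least 10 over all 16 libraries. They came from 1642 rows with that suffix, in a table of 58787 genes. Each was paired with the gene it is named after, called its partner below. The level rule used no comparison between groups, but it used the level itself, so levels are given as a description.

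The cells were IMR32, a neuroblastoma line with extra copies of MYCN, grown in culture and described in the labels as neuroblasts. Each library came from cells given the non-targeting small interfering RNA (siRNA) siNTC or 1 of 3 that target TPX2, called si45, si46 and si47 in the labels, and was taken at 48 hours per the column headers of the table. TPX2 is a spindle assembly protein that activates the mitotic kinase AURKA, and the comparison asks which transcripts change when TPX2 is depleted. There were 4 biological replicates in each of the 4 groups, all from this 1 line, so the p-values below speak for IMR32 only.

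Antisense RNAs can act on their partner in cis, by opening or closing its promoter, by colliding transcription or by pairing with its mRNA, or elsewhere in the cell, and many have no known role. Head-to-head pairs have their 5′ ends side by side or overlapping and often share a promoter region, while tail-to-tail pairs run into each other at their 3′ ends. In the sympathetic lineage from which neuroblastoma arises, HAND2 and GATA3 are core transcription factors, and both have an antisense gene beside them.

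TPX2 itself checked the labels. It lay between 297 and 359 CPM (counts scaled to the size of the library) in the siNTC libraries, and at 28.0%, 24.9% and 21.8% of the control mean under si45, si46 and si47 (two-sided exact permutation p = 0.0286 for each, the smallest that 4 against 4 libraries allow). Total counts per library ran from 5318159 to 7864343, and the 229 antisense RNAs held 0.367% to 0.420% of them. All 10 adrenergic neuroblastoma markers fixed for the label check were expressed, TH being the lowest at 2.78 CPM in siNTC. Their summed level was 6518 CPM in siNTC and 7021, 7322 and 7562 CPM in si45, si46 and si47. Of the marker genes of other cell types, 4 of 7 mesenchymal, 1 of 4 Schwann, 1 of 4 epithelial, 0 of 4 immune and 0 of 3 endothelial genes passed the low-count filter.

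In this 3′ end assay reads come mostly from the last stretch of a polyadenylated transcript, so an antisense gene is measured mostly at the ends of its transcripts. The ends below are annotated ends of some of the antisense RNAs that the later results turn on. Counts per gene do not say which end was read. Each is the last 30 bases of 1 annotated transcript in GENCODE v29, 5′ to 3′ in RNA sense with T for U. Other transcripts of a gene can end elsewhere, as HAND2-AS1 has 48 complete transcripts and SLC16A1-AS1 has 7. Capitals mark a polyadenylation hexamer, searched as AATAAA or ATTAAA, and those of GAS6-AS1 and GTF2A1-AS1 hold neither.

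HAND2-AS1: aactttaAATAAAtgaaatcatactggata
SLC16A1-AS1: gatgatAATAAAtagcggctaacatttaaa
TMPO-AS1: AATAAAaaccacctatgaggaatgcttcaa
ATP2B1-AS1: cacatgcatctagcaataggacaaAATAAA
ERCC6L2-AS1: ttccAATAAAtgaacttatattcatatttc
ZNF561-AS1: gttaagtgaaAATAAAaactgttgccaggc
EPB41L4A-AS1: tatatgAATAAAaatatatgcagtctgaaa
PYCARD-AS1: gagATTAAAgaccatgaacttgaagccata
GAS6-AS1: acctatgaaggacagctttactcattagtt
GTF2A1-AS1: gtatattatataaagttatgattctatcaa

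On GRCh38 these windows are chr4:173589223-173589252 (+ strand), chr1:112975401-112975430 (+), chr12:98512973-98513002 (-), chr12:89712561-89712590 (+), chr9:95870284-95870313 (-), chr19:9634833-9634862 (+), chr5:112164247-112164276 (+), chr16:31203423-31203452 (+), chr13:113845715-113845744 (+) and chr14:81222431-81222460 (+), in the order printed. A hexamer lay in the last 30 bases of at least 1 complete transcript of 165 of the 229 antisense genes (72.1%), against 607 of 916 other long non-coding genes past the low-count filter that have such a transcript (66.3%). Of the antisense RNAs that rose or fell in the results below, 8 of 14 (57.1%) and 2 of 3 held one, so the ends shown hold it more often than those RNAs as a whole. A missing hexamer says only that these letters are not in the annotated window.

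The antisense genes were mostly annotated as such. GENCODE v29 types 173 of the 229 as antisense, 25 as lincRNA, 24 as processed transcript, 4 as transcribed pseudogene, 2 as bidirectional promoter RNA and 1, KRT10-AS1, as protein coding. All 229 partners are protein coding. By position, 125 pairs (54.6%) were head to head, 50 tail to tail, 34 had the antisense gene inside the span of the partner, 19 overlapped in another way and 1 lay apart. Head to head here means starts at most 1000 bases apart without overlap, or an overlap that holds both starts. In 92 of the 125 the starts lay at most 1000 bases apart, in 33 farther, and 15 of the 125 did not overlap, so 16 pairs had no overlap in all. Exons of 175 antisense genes overlapped exons of the partner on the other strand, and 67 had a transcript end inside an opposite-strand exon. The sources used here do not state whether counting used strand, so reads of such a gene and its partner cannot be told apart where their exons overlap.

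Most of these RNAs were scarce. The median antisense RNA stood at 4.56 CPM in siNTC, against 34.8 CPM for the 197 partners that passed the low-count filter. CPM is not divided by length here, since in a 3′ end library a transcript gives about the same number of reads whatever its length. In 161 of the 229 the siNTC level was under 10 CPM, and in 4 it was at least 100 CPM. The 3 highest held 33.6% of all antisense counts in siNTC, and 64 antisense RNAs stood above their partner. Just inside the minimum mean count were TSC22D1-AS1 (10.1), SP2-AS1 (10.1), RGMB-AS1 and SELENOO-AS1 (10.4 each), and just outside were TFAP2A-AS1 (9.75), CRTC3-AS1 (9.5), HDAC4-AS1 and ZNF436-AS1 (9.44 each) and TTLL1-AS1 (9.38).

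HAND2-AS1 (chr4:173527270-173659696, + strand) was the highest of all, at 591, 613, 591 and 630 CPM in the siNTC libraries. Its partner HAND2, on the opposite strand, stood at 715 ± 31.6 CPM (SD, n = 4). GABPB1-AS1 followed at 401, 527, 520 and 501 CPM, far above its partner GABPB1, a subunit of an ETS transcription factor, at 30.4 ± 1.92 CPM. SLC16A1-AS1 (187 ± 7.66 CPM) and FGD5-AS1 (107 ± 12.2 CPM) came next. FGD5, which encodes an exchange factor for the small GTPase CDC42, was at 0.169 ± 0.245 CPM, so that locus was read almost wholly as antisense. OIP5-AS1 (96.7 ± 9.45 CPM), PSMA3-AS1 (95 ± 7.13), CDK6-AS1 (90.7 ± 9.27), EMC3-AS1 (90.6 ± 9.54), OTUD6B-AS1 (82.3 ± 13.3) and HSD17B1-AS1 (70.1 ± 11.3) completed the 10 highest, with neighbours closer than their spread. Of these 10, only SLC16A1-AS1 passed the test in the mean of the 3 siRNAs.

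**Figure D1:**
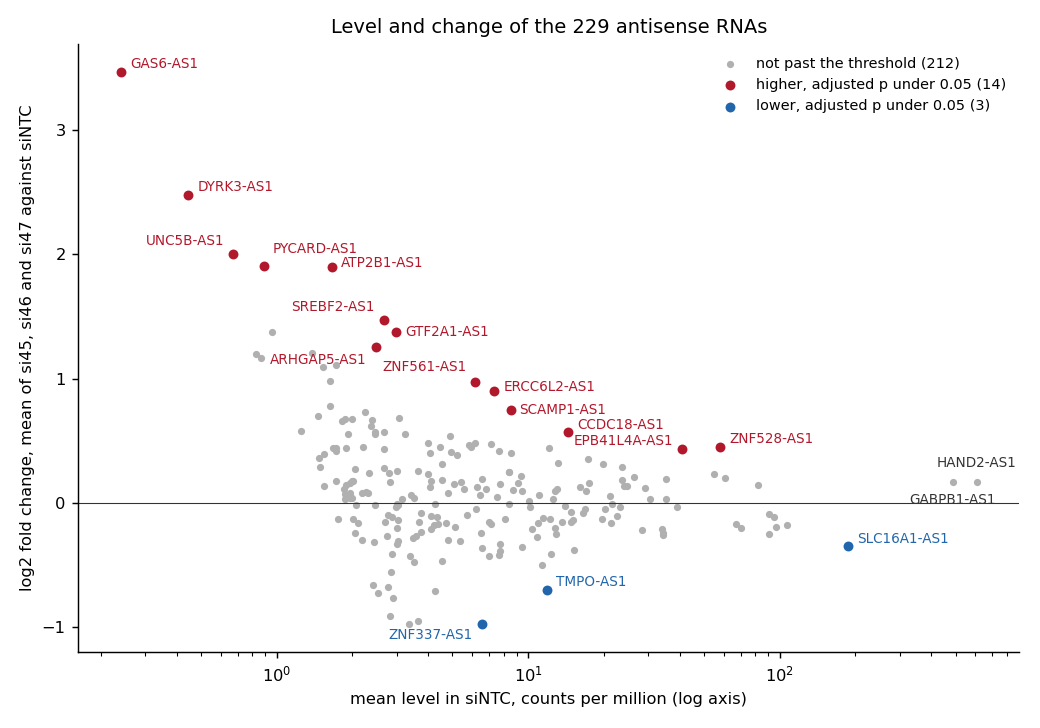
Each point is 1 of the 229 antisense RNAs, with its mean level in siNTC (CPM, log axis) against its log2 fold change in the mean of the 3 siRNAs. The 14 that rose lie from 0.241 to 58.1 CPM, and the 3 that fell from 6.53 to 187 CPM.

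After TPX2 knockdown 17 of the 229 antisense RNAs changed in the mean of the 3 siRNAs against siNTC, 14 upward and 3 downward (edgeR quasi-likelihood test, Benjamini-Hochberg adjusted p under 0.05 over all 14193 genes tested). That is 7.42% of them, beside 7.14% of all genes tested, so the share called was near the background. By direction it was 6.11% higher and 1.31% lower, beside 3.61% and 3.53% of all genes, and their median log2 fold change was 0.08. Other genes of long non-coding types were called higher in 4.51% and lower in 0.934% of 1285 tested, with a median of 0.10, and protein-coding genes in 3.16% and 4.07% of 11754. Without siNTC replicates 1, 2, 3 and 4 the number called was 10, 11, 11 and 10. The share of all genes called when a library was left out was not counted, here or below. In bulk RNA, fewer cells with a transcript and less transcript per cell cannot be told apart.

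The level rule bears on the count. In 17 antisense RNAs the mean count was under 10 in siNTC, so they entered through their knockdown libraries and all 17 had a fold change above 0, as the rule fixes. They include 4 of those called higher, GAS6-AS1, DYRK3-AS1, UNC5B-AS1 and PYCARD-AS1. Among the 212 with a mean siNTC count of at least 10, 10 rose and 3 fell (6.13%) and the median log2 fold change was 0.04. Of these, 3 had a mean knockdown count under 10 and entered through siNTC. Their median was -0.73, 0 had a fold change above 0 and 0 were called. Where both means were at least 10, 10 of 209 rose and 3 fell (6.22%), with a median of 0.04. With a mean count under 50 over all libraries, 8 of 148 rose and 1 fell (6.08%, beside 4.21% of all such genes). All counts over the 229 are therefore descriptions of rows chosen partly by their level in knockdown or control libraries.

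Under single siRNAs the number called followed that of all genes. si45 called 3 antisense RNAs higher and 0 lower, beside 1.34% of all genes called (1.01% higher and 0.324% lower). With the replicate block it called 10 (4.37%, beside 4.07% of all genes in that fit). In the unblocked fit si45 called 1 without siNTC replicate 1, siNTC replicate 2 or si45 replicate 2, 0 without si45 replicate 1 and 5 without si45 replicate 3. si46 called 9 higher and 3 lower, beside 3.4% (2.14% higher and 1.25% lower). That total of 12 became 5 without siNTC replicate 1 or si46 replicate 2, 6 without si46 replicate 4, and 7 without siNTC replicate 2, 3 or 4. si47 called 17 higher and 4 lower, beside 9.74% (4.91% higher and 4.83% lower), and its 21 became 12, 11 and 13 without siNTC replicate 1, si47 replicate 1 and si47 replicate 2. GAS6-AS1, SREBF2-AS1 and ZNF561-AS1 passed under each siRNA on its own.

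**Figure D2:**
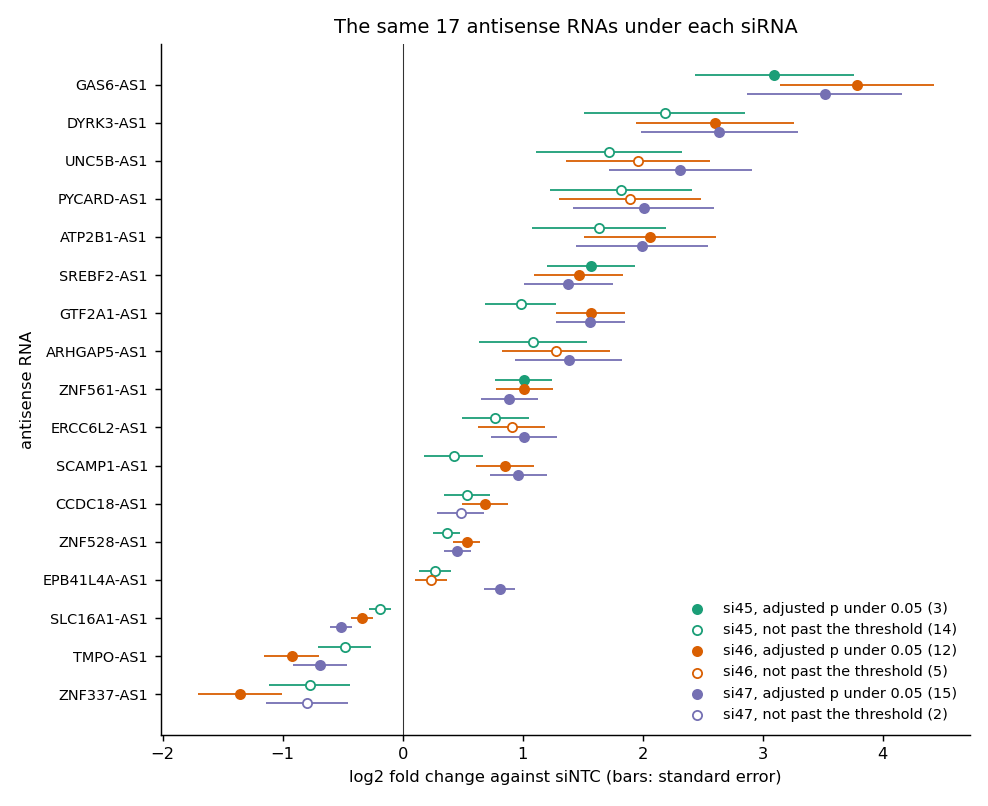
Log2 fold change against siNTC with its standard error for the 17 antisense RNAs called in the mean contrast, under si45, si46 and si47. Filled points passed the threshold, which 3 did under si45, 12 under si46 and 15 under si47, and each antisense RNA has its 3 points on the same side of 0.

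GAS6-AS1 gave the largest rise. This RNA of chr13:113815630-113845744 (+ strand) is tail to tail with GAS6, which encodes the ligand of the TAM receptor kinases AXL, MERTK and TYRO3. It stood at 0.321, 0.469, 0 and 0.173 CPM in siNTC, and the 0 allows up to 0.566 CPM (3 counts in that library). Under si45 it was at 3.57, 2.29, 1.04 and 2.27 CPM, under si46 at 4.81, 3.46, 2.86 and 3.73 CPM and under si47 at 3.30, 4.54, 0.840 and 3.73 CPM. No knockdown library overlapped the controls, a separation that the level rule favours here. The share of all genes with such a separation was not counted, for this RNA or those below. The controls held 6 counts in all and the knockdown libraries 223, a ratio of 12.1 after scaling (exact interval at the 95% level 5.49 to 33.4, counting error only). The fitted log2 fold change was 3.47 ± 0.59 (SE, adjusted p = 0.000151), and its size depends on the prior count because the controls are near 0. GAS6 itself went from 2.35 ± 0.501 CPM to 3.89 ± 1.05 CPM under si47 and did not pass there (log2 fold change 0.72, adjusted p = 0.247) or in the mean (0.66, adjusted p = 0.237). Exons of the pair overlap by 421 bases, and TMEM255B, which the antisense gene overlaps on the same strand, averaged 1 count per library.

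DYRK3-AS1 (chr1:206634649-206635622, - strand) starts 86 bases from DYRK3, a kinase that dissolves condensates during mitosis. It was at 0.481, 0.938, 0.189 and 0.173 CPM in siNTC, and at 1.86, 2.91, 1.21 and 2.65 CPM under si45. si46 gave 1.14, 6.37, 1.68 and 2.61 CPM and si47 gave 3.61, 5.26, 1.85 and 1.19 CPM, all above the controls. Its log2 fold change was 2.48 ± 0.59 (edgeR adjusted p = 0.00632) and the counting ratio 5.64 (3.08 to 11.5), from 11 control counts. DYRK3, at 2.08 ± 0.856 CPM, had a log2 fold change of 0.19 (adjusted p = 0.836).

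GTF2A1-AS1 (chr14:81221218-81222460, + strand) also rose with no overlap between the groups. It is head to head with GTF2A1, a subunit of the general transcription factor TFIIA, and their starts lie 159 bases apart. The siNTC libraries held 2.57, 3.60, 2.46 and 3.30 CPM. Knockdown libraries held 5.90, 6.27, 6.76 and 4.73 CPM (si45), 8.10, 10.7, 5.89 and 11 CPM (si46) and 10.1, 11.6, 7.06 and 6.77 CPM (si47). The lowest of them was above the highest control, and the log2 fold change was 1.37 ± 0.25 (edgeR adjusted p = 0.000409). GTF2A1 was at 26.9 ± 3.71 CPM in siNTC and its log2 fold change was 0.13 (adjusted p = 0.631).

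SREBF2-AS1 (chr22:41831215-41834665, - strand) lies over the first part of SREBF2, the transcription factor that drives cholesterol synthesis genes. siNTC gave 2.73, 1.72, 1.89 and 4.34 CPM, si45 11.3, 10.1, 3.81 and 6.43 CPM, si46 4.05, 12.4, 5.89 and 7.64 CPM, and si47 8.33, 7.26, 7.39 and 4.91 CPM. In 10 of 12 knockdown libraries the level was above every control. It rose by 1.47 ± 0.32 on the log2 scale (edgeR adjusted p = 0.00302), and under each siRNA it was 1.57, 1.47 and 1.38. SREBF2 was at 77.7 ± 3.06 CPM with a log2 fold change of -0.09 (adjusted p = 0.623).

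ATP2B1-AS1 (chr12:89708959-89712590, + strand) is a single-exon RNA head to head with ATP2B1, the plasma membrane calcium pump. It went from 0.641, 2.82, 0.756 and 2.43 CPM in siNTC to 4.66, 8.41, 2.95 and 4.92 CPM under si45. si46 gave 5.57, 12.7, 2.69 and 7.45 CPM, and si47 gave 9.90, 10.5, 2.86 and 3.73 CPM. Replicate 3 was the lowest library under each siRNA, and 11 of 12 knockdown libraries were above every control. This was a log2 fold change of 1.90 ± 0.49 (edgeR adjusted p = 0.0204), which became 0.0854 without siNTC replicate 1, 0.0846 without siNTC replicate 3 and 0.0864 with limma-voom. ATP2B1 was at 109 ± 14.3 CPM and its log2 fold change was -0.12 (adjusted p = 0.544).

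UNC5B-AS1 (chr10:71217224-71218228, - strand) sits inside UNC5B, a receptor for the guidance cue netrin, with no exon in common. Its siNTC levels were 0.481, 0, 1.51 and 0.694 CPM, where the 0 allows up to 0.468 CPM, and the group means were 2.16 ± 0.791, 2.58 ± 0.824 and 3.30 ± 1.51 CPM under si45, si46 and si47. The log2 fold change was 2.0 ± 0.53 (edgeR adjusted p = 0.016) and the counting ratio 4.25 (2.51 to 7.73), and 10 of 12 knockdown libraries were above every control. The adjusted p was 0.0679, 0.077 and 0.0513 without siNTC replicates 1, 2 and 4. PYCARD-AS1 (chr16:31201885-31203452, + strand) overlaps PYCARD, the inflammasome adaptor ASC, which had 0 counts in every library. PYCARD-AS1 was at 0.962, 0.782, 0.946 and 0.867 CPM in siNTC and from 0.505 (si46 replicate 3) to 8.18 CPM (si46 replicate 2) after knockdown, with 11 of 12 knockdown libraries above every control and 1 below. Its log2 fold change was 1.91 ± 0.52 (adjusted p = 0.0199), but 0.0627, 0.0715, 0.0584 and 0.0680 were the adjusted p-values without siNTC replicates 1, 2, 3 and 4, and 0.146 with limma-voom.

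ZNF561-AS1 and ERCC6L2-AS1 are longer and better counted. ZNF561-AS1 (chr19:9621291-9645896, + strand) starts 108 bases from ZNF561, a zinc finger gene, and was at 4.49, 5.63, 7.75 and 6.77 CPM in siNTC. All 12 knockdown libraries were higher, from 7.80 to 15.1 CPM, with means of 12.3 ± 2.47, 12.3 ± 2.13 and 11.3 ± 2.82 CPM. This was a rise of 0.97 ± 0.20 on the log2 scale (edgeR adjusted p = 0.00197). The antisense gene also overlaps ZNF562 on the other strand, and neither ZNF561 (0.41, adjusted p = 0.146) nor ZNF562 (-0.08, adjusted p = 0.642) passed. ERCC6L2-AS1 (chr9:95759231-95875977, - strand) is head to head with ERCC6L2, which encodes a DNA repair factor related to the SNF2 helicases. It rose from 7.35 ± 1.17 CPM to 12.5 ± 4.87, 13.9 ± 5.36 and 14.9 ± 4.47 CPM (log2 fold change 0.90 ± 0.24, adjusted p = 0.0169), and 11 of 12 knockdown libraries were above every control. Without siNTC replicates 1, 3 and 4 the adjusted p was 0.0621, 0.0575 and 0.0787, and with limma-voom 0.0542. ERCC6L2 did not pass (-0.12, adjusted p = 0.525).

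SCAMP1-AS1 (chr5:78342365-78360507, - strand), 76 bases from the start of SCAMP1, a membrane protein of secretory vesicles, rose from 8.51 ± 2.36 CPM to 11.4 ± 3.09, 15.4 ± 4.89 and 16.6 ± 2.03 CPM. Its log2 fold change was 0.75 ± 0.20 (edgeR adjusted p = 0.0197), with an adjusted p of 0.0695, 0.0812 and 0.107 without siNTC replicates 1, 2 and 4 and 0.0508 with limma-voom. CCDC18-AS1 (chr1:93262186-93346025, - strand) is tail to tail with the coiled-coil gene CCDC18 and also overlaps DR1 on the other strand. It rose from 14.4 ± 2.87 CPM to 20.8 ± 5.64, 23 ± 3.42 and 20.1 ± 2.60 CPM (0.57 ± 0.16, adjusted p = 0.0253, but 0.115, 0.116 and 0.0595 without siNTC replicates 1, 2 and 3). ARHGAP5-AS1 (chr14:32074946-32076793, - strand), named after a GTPase activating protein, went from 2.48 ± 0.917 CPM to 5.25 ± 3.09, 6.06 ± 2.51 and 6.48 ± 1.80 CPM. Its log2 fold change of 1.25 ± 0.39 was the closest to the threshold (adjusted p = 0.0473), and si45 replicate 3, at 0.694 CPM, was below every control. With limma-voom its adjusted p was 0.223. Leaving out any library other than replicate 3 of si45, si46 or si47 took that adjusted p past the threshold, to between 0.0540 and 0.167, the highest being without siNTC replicate 2.

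ZNF528-AS1 and EPB41L4A-AS1 made the smallest rises and were the most abundant of those that rose. ZNF528-AS1 (chr19:52388842-52397766, - strand) starts 83 bases from ZNF528 and does not overlap it. It was at 60.1, 63.8, 57.9 and 50.5 CPM in siNTC and at 74.8 ± 13.5, 84.3 ± 4.98 and 79.7 ± 1.60 CPM under si45, si46 and si47, with 1 library (si45 replicate 4, 54.9 CPM) inside the control range. It rose by 0.45 ± 0.09 on the log2 scale (edgeR adjusted p = 0.00175), against 0.15 for ZNF528 (adjusted p = 0.595). EPB41L4A-AS1 (chr5:112160526-112164276, + strand) lies within EPB41L4A, a FERM domain gene that was near 0 here (0.252 ± 0.212 CPM), and it carries SNORA13, a snoRNA, on its own strand. It was at 41.7, 36.6, 46.5 and 38.5 CPM in siNTC, 49.1 ± 5.41 under si45, 48 ± 4.94 under si46 and 59.1, 70.2, 61.8 and 94.7 CPM under si47. Its log2 fold change was 0.44 ± 0.11 in the mean (adjusted p = 0.0114, but 0.0628 and 0.0588 without siNTC replicates 2 and 4). Under si47 alone it was 0.81 (adjusted p = 7.24e-05), and under si45 and si46 it did not pass (0.27 and 0.23). Neither si47 against si45 nor si47 against si46 called it, but with the replicate number as a block both did (edgeR adjusted p = 0.00485 and 0.00457).

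**Figure D3:**
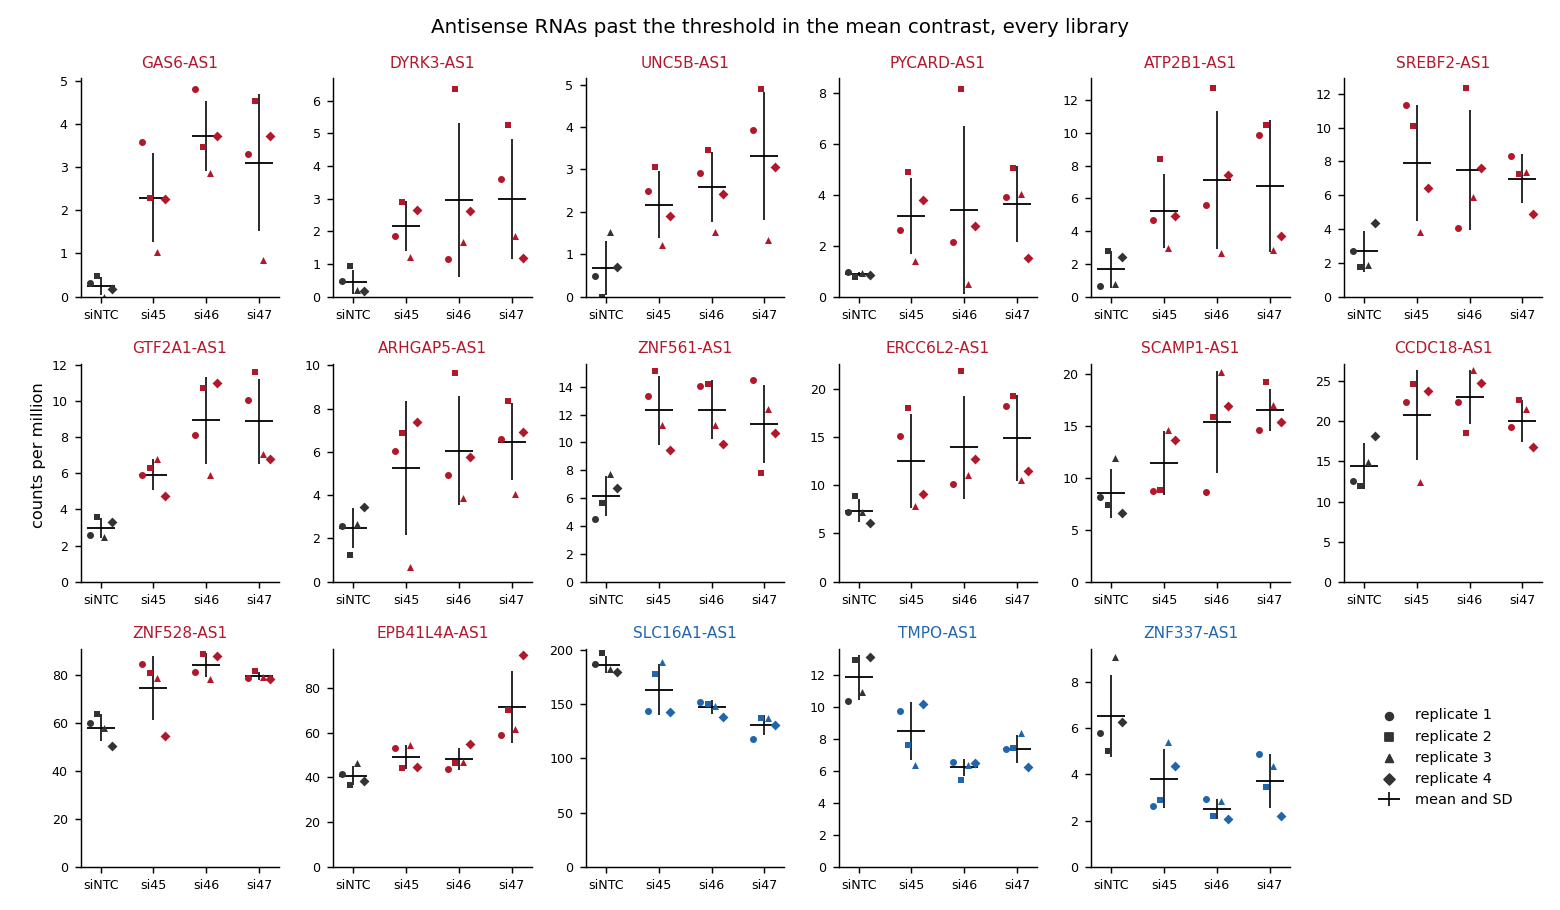
CPM in every library for the 17 antisense RNAs called in the mean contrast, with the group mean and SD, each panel on its own axis from 0. GAS6-AS1, DYRK3-AS1, GTF2A1-AS1 and ZNF561-AS1 have no knockdown library at or below a control, and ARHGAP5-AS1 and PYCARD-AS1 each have 1 knockdown library below all controls. The share of all genes separated in this way was not counted, and the level rule favours it in GAS6-AS1 and DYRK3-AS1.

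Some libraries of a knockdown group stood lowest more often than others. Of the 14 antisense RNAs that rose, 9 had their lowest si45 value in replicate 3. Under si46 it was replicate 3 for 7 and replicate 1 for 5, and under si47 replicate 4 for 6 and replicate 3 for 5. TPX2 was highest in replicate 3 of each knockdown group, at 121, 93.8 and 76.3 CPM, against 79.4 to 85.1, 62.2 to 90.9 and 68.7 to 71.3 CPM in the other libraries. The part of this in the results was not tested.

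3 antisense RNAs fell. SLC16A1-AS1 (chr1:112956415-113047055, + strand) is head to head with SLC16A1, the lactate transporter MCT1, and is the only 1 of the 17 above 100 CPM. It was at 187, 197, 182 and 180 CPM in siNTC, at 144, 178, 189 and 143 CPM under si45, at 152, 150, 149 and 138 CPM under si46 and at 118, 137, 137 and 131 CPM under si47. All si46 and si47 libraries were below the controls, while si45 replicate 3 was among them. The log2 fold change was -0.35 ± 0.07 (edgeR adjusted p = 0.00205). SLC16A1 was at 564 ± 13.5 CPM in siNTC and had a log2 fold change of -0.06 (adjusted p = 0.62).

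TMPO-AS1 (chr12:98512973-98516422, - strand) is head to head with TMPO, which encodes the lamina-associated polypeptide LAP2. It fell from 10.4, 13.0, 11 and 13.2 CPM in siNTC to 9.78, 7.64, 6.42 and 10.2 CPM under si45. Under si46 it was at 6.58, 5.46, 6.40 and 6.52 CPM and under si47 at 7.39, 7.44, 8.40 and 6.26 CPM, so every knockdown library was below every control. Its log2 fold change was -0.70 ± 0.18 (edgeR adjusted p = 0.0109, but 0.0561 and 0.0567 without siNTC replicates 2 and 4). TMPO went from 248 ± 8.22 to means of 217, 225 and 200 CPM, which passed under si47 (-0.31, adjusted p = 0.0156) and not in the mean (-0.21, adjusted p = 0.0523). Exons of this pair overlap by 713 bases.

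ZNF337-AS1 (chr20:25624045-25678074, + strand) is tail to tail with the zinc finger gene ZNF337 and shares 2823 exonic bases with it on opposite strands. It was at 5.77, 5.01, 9.08 and 6.25 CPM in siNTC and at 3.82 ± 1.28, 2.50 ± 0.449 and 3.72 ± 1.17 CPM under si45, si46 and si47. In 11 of 12 knockdown libraries the level was below every control, and siNTC replicate 3 was the highest control. The log2 fold change was -0.98 ± 0.27 (edgeR adjusted p = 0.0188), and without siNTC replicate 3 it was -0.78 (adjusted p = 0.138). ZNF337 had a log2 fold change of 0.22 (adjusted p = 0.252).

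A further 6 antisense RNAs passed under si47 alone and not in the mean contrast. EMC3-AS1 (chr3:9986893-10006990, + strand), named after a subunit of the endoplasmic reticulum membrane complex, was at 87.5, 105, 83.4 and 86.7 CPM in siNTC and at 88.3 ± 8.84 and 79.7 ± 3.32 CPM under si45 and si46. Under si47 it was at 53.1, 63.1, 72.9 and 60.8 CPM, below every other library. Its si47 log2 fold change was -0.54 (edgeR adjusted p = 0.000742), and EMC3 did not pass (-0.07, adjusted p = 0.767). DCST1-AS1 was lower (-1.71, adjusted p = 0.0235), while ZNF460-AS1 (1.48, adjusted p = 0.0385), ZNF232-AS1 (0.77, adjusted p = 0.0122), GATA3-AS1 and HAND2-AS1 were higher.

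Between the siRNAs themselves few antisense RNAs separated. si47 against si45 called 1 antisense RNA, EMC3-AS1 (log2 difference -0.50, edgeR adjusted p = 0.0285, beside 0.169% of all genes called). The same-numbered si45 and si47 libraries deviated together, as did those of the other groups to a varying degree. With the replicate number as a block 3 were called, EMC3-AS1 among them (edgeR adjusted p = 0.000855). That is 1.31% of the 229, beside 2.8% of all genes in the blocked fit. Without si47 replicate 1, 2 or 4, or si45 replicate 2 or 3, 0 were called, and without si47 replicate 3, 2. si46 against si45 called 0 (edgeR quasi-likelihood test, 13 at an unadjusted p under 0.05, beside 0.0282% of all genes called, and 0 with DESeq2 or limma-voom). si47 against si46 also called 0 (edgeR, 23 at an unadjusted p under 0.05, beside 0.0493% of all genes, 1 with DESeq2, 0 with limma-voom, 1 without si47 replicate 3). With the replicate block it called 2 (0.873%, beside 0.761% of all genes).

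The antisense RNAs of the lineage factors moved little. HAND2-AS1 was at 650 ± 15.3, 685 ± 54.1 and 712 ± 22.0 CPM under si45, si46 and si47, from 606 ± 19.1 CPM. It passed under si47 (log2 fold change 0.23, edgeR adjusted p = 0.0456) and not in the mean (0.17, adjusted p = 0.0944, but 0.0259 with DESeq2), whereas HAND2 passed in the mean (0.23, adjusted p = 0.0193). GATA3-AS1 (chr10:8050450-8053484, - strand) went from 48.1, 57.4, 56.7 and 56.7 CPM in siNTC to 75.0, 64.6, 70.7 and 68.7 CPM under si47 (0.35, adjusted p = 0.0275), and GATA3 from 1110 ± 85.3 to 1300 ± 73.4 CPM (0.23, adjusted p = 0.0463). In the mean contrast neither passed (0.23 and 0.16, adjusted p = 0.109 and 0.127). Here the antisense RNA and its partner had fold changes of like size. ZEB1-AS1, beside the mesenchymal regulator ZEB1, had a log2 fold change of 0.04 ± 0.32 (adjusted p = 0.964).

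None of the 17 antisense RNAs called in the mean contrast had a partner called there, although PYCARD and EPB41L4A were too low to be tested. Partners of 12 that rose and 3 that fell were tested, too few to set 0 apart from the share of all partners. Under si47, TMPO-AS1, HAND2-AS1 and GATA3-AS1 each passed together with the partner. Of the 197 partners tested, 16 were called in the mean contrast, 11 higher and 5 lower (8.12%, beside 7.14% of all genes). All 16 belong to antisense RNAs that were not called, as do 182 of the 197 partners tested. Without siNTC replicate 1, 2 or 3, 9 partners were called, and with the replicate block 37, where 12.8% of all genes were called. ID2, an inhibitor of basic helix-loop-helix factors, rose from 180 ± 11.9 CPM to 341 ± 52.3, 351 ± 39.2 and 395 ± 60.3 CPM (log2 fold change 1.01 ± 0.09, adjusted p = 1.36e-08), and ID2-AS1 was at 3.01 ± 2.44 CPM in siNTC with a log2 fold change of 0.26 (adjusted p = 0.765). IER3, an immediate early gene, rose from 27.9 ± 2.7 to 56.3, 54.4 and 73.6 CPM (1.13 ± 0.13, adjusted p = 1.5e-06) and IER3-AS1 had a log2 fold change of -0.03 (adjusted p = 0.975). INKA2, an inhibitor of the kinase PAK4, GCC2, a golgin, and INTS6, a subunit of Integrator, rose by 0.86, 0.61 and 0.62, and TBX2, RFX5, ZNF667, ELOA, FOXN3 and HAND2 by 0.23 to 0.51. TRHDE, THAP7, TENM3, DUT and NFIB fell, by 0.63, 0.42, 0.38, 0.27 and 0.27 on the log2 scale, and DUT, the dUTPase of nucleotide metabolism, went from 342 ± 16.6 to 311, 276 and 264 CPM.

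The difference between an antisense RNA and its partner was tested directly, on the log2 ratio of their CPM in each library. Over 2358 sense and antisense pairs, 4.03% (1.7% higher and 2.33% lower) had a ratio that differed between the mean of the 3 siRNAs and siNTC (limma, adjusted p under 0.05 over all pairs), and 8 of the 197 pairs tested here did (7 higher, 1 lower). That number was 13 without si45 replicate 3 and 14 with the replicate block, where 7.42% of all pairs were called. Where neither gene of a pair is named as antisense, a higher or lower ratio has no antisense direction. The split into 1.7% and 2.33% is therefore no background for the 7 higher and 1 lower, and only the total of 4.03% is. The level rule favours a raised ratio in GAS6-AS1, DYRK3-AS1 and UNC5B-AS1, which reached the minimum count through their knockdown libraries. Among the 182 pairs whose antisense RNA had a mean siNTC count of at least 10, 4 ratios were higher and 1 lower (2.75%). The ratio rose for ATP2B1-AS1 by 1.89 ± 0.34 on the log2 scale (adjusted p = 0.000593), GAS6-AS1 by 1.93 ± 0.39 (0.00225) and SREBF2-AS1 by 1.47 ± 0.30 (0.0023). GTF2A1-AS1 (1.15 ± 0.26, adjusted p = 0.00565), ERCC6L2-AS1 (0.94 ± 0.22, 0.00753), UNC5B-AS1 (1.53 ± 0.41, 0.0243) and DYRK3-AS1 (1.71 ± 0.47, 0.027) also passed, and ZNF337-AS1 was the 1 whose ratio fell (-1.14 ± 0.30, 0.0222). The prior count of 2 in the log2 CPM draws these values toward 0 where counts are low. SCAMP1-AS1 (0.69, adjusted p = 0.0517), IER3-AS1 (-1.20, 0.0546) and SLC16A1-AS1 (-0.29, 0.0664) just missed, and for HAND2-AS1 (-0.06 ± 0.07, 0.702) and GATA3-AS1 (0.07 ± 0.11, 0.805) the ratio moved by less than its error.

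**Figure D4:**
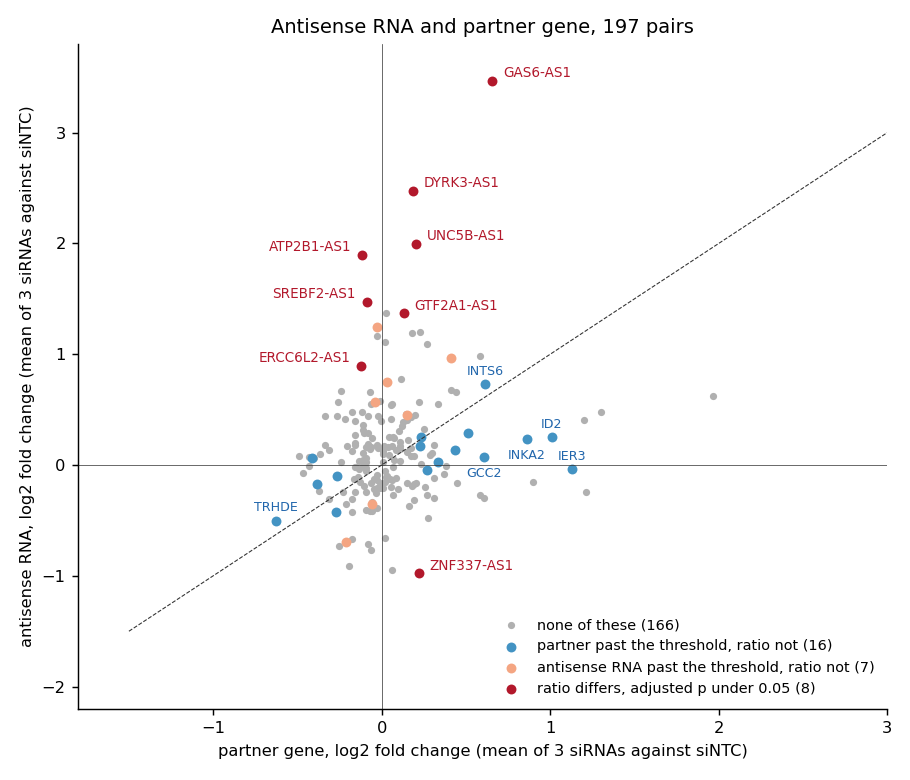
Log2 fold change of the partner gene (horizontal axis) and of the antisense RNA (vertical axis) in the mean of the 3 siRNAs, for the 197 pairs in which both were tested, with the line of equal change dashed. The 7 pairs with a raised ratio lie above the line, 6 of them with a partner change between -0.12 and 0.20 and GAS6-AS1 with one of 0.66, and the called partners, such as ID2 and IER3, lie to the side of antisense RNAs that were not called.

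By arrangement, 10 of the 125 head-to-head antisense RNAs rose and 2 fell (9.6% called, beside 7.14% of all genes, median log2 fold change 0.10). Of the 50 tail-to-tail RNAs 2 rose and 1 fell (6.0%, median -0.02), of the 34 inside the partner 2 rose and 0 fell (5.88%, median 0.03), and of the 19 with another overlap 0 were called (median 0.07). The head-to-head group held 54.6% of all 229 and 10 of the 14 that rose. The median span of those that rose was 3692 bases, against 13570 bases in the 212 not called. A single annotated transcript end is given for 7 of the 14, against 50 of the 212. Whether the arrangements differ was not tested.

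**Figure D5:**
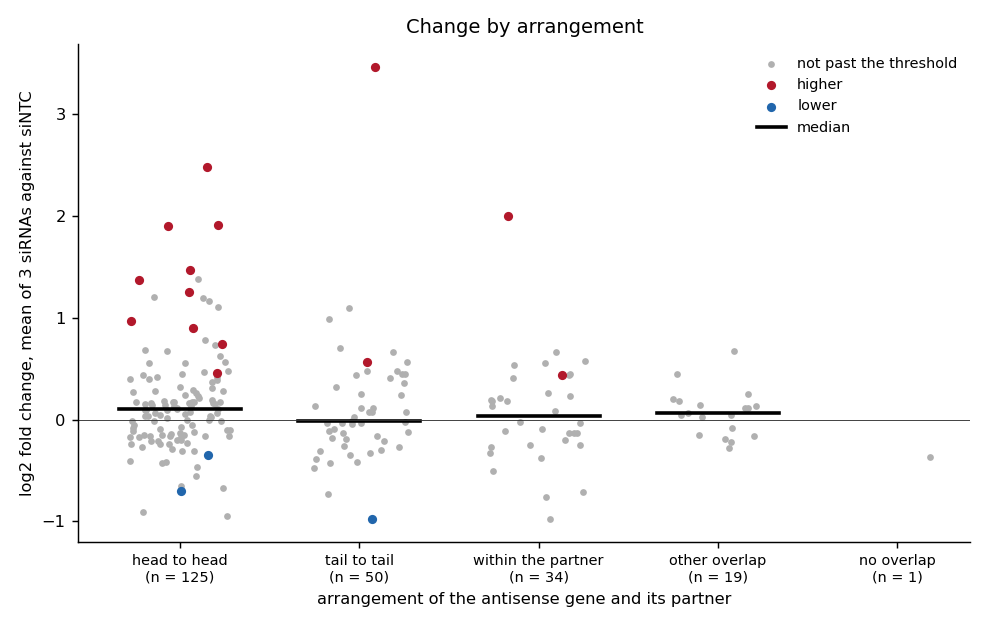
Log2 fold change of each antisense RNA in the mean of the 3 siRNAs, by its position relative to the partner, with medians as bars. The medians lie between -0.02 and 0.10 in the 4 groups of more than 1 gene, and the called RNAs are spread over 3 of them.

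Promoter windows from RefSeq (250 bases before to 50 after a start, GRCh38) were found for 184 of the 229 symbols, in 219 windows. The p53 half-site consensus, searched on both strands since it reads the same on each, was in 21 of these (9.59%) and in 6.63% of all 35116 windows, and CACGTG, an E-box that is its own reverse complement, in 20 (9.13%) and in 7.26%. Among 14 windows found for 13 of the antisense RNAs that rose, 2 held the half-site (14.3%) and 1 the E-box (7.14%). The matches are shown in capitals within 30 bases, SCAMP1-AS1 at chr5:78360510-78360539 (- strand), PYCARD-AS1 at chr16:31201635-31201664 (+) and GTF2A1-AS1 at chr14:81221158-81221187 (+), and are a description of letters, not of binding.

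SCAMP1-AS1: ccgcgccactGAGCATGCCCggtgcggcgg
PYCARD-AS1: cctggagGAGCAAGTCCttgcaggtccagt
GTF2A1-AS1: cgctcgcgtgatCACGTGgttggcacccag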

How the data were processed

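Total RNA of 16 IMR32 libraries was profiled with a 3′ end kit and 15 PCR cycles, per the labels' protocols. The authors deposited 1 table of raw counts per Ensembl gene. Per the submitters' processing notes, FastQC 0.11.7, STAR 2.7.2b, edgeR 3.36.0 and limma 3.50.3 were used with GRCh38, and the annotation, the strand setting and any collapsing of duplicates are not given in the sources used here. Counting intervals cover counting error only, since PCR copies are not independent molecules.

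A gene name table gave symbols for 58434 of 58787 rows, and positions came from GENCODE v29, which holds 58515. Head to head means overlapping with both starts in the overlap, or starts at most 1000 bases apart. Counts were fitted with edgeR 4.0.16 (R 4.3.3): filterByExpr (minimum count 10, minimum total 15), TMM, 1 robust quasi-likelihood model of 4 group means, no covariate, Benjamini-Hochberg over 14193 genes per contrast, threshold 0.05. Pair ratios used limma 3.58.1 (trend) on log2 CPM with a prior count of 2, over 2358 pairs. TPX2 was tested on log2(CPM + 1).

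The antisense RNAs, lists and the rule for naming them were chosen with earlier results of these data known. The rule named TPX2, those called in the mean contrast, under 1 siRNA, between siRNAs or by their ratio, the 10 highest in siNTC, the 5 nearest each side of the minimum, and GATA3-AS1, HAND2-AS1, ZEB1-AS1 and GAS6-AS1. Of those inside the minimum, 1 is not reported here.

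On simulated 2-fold changes in the mean contrast, edgeR recovered 74.5% with 8 false calls among 13921 genes, but 20.3% of those with a mean count under 50, and the ratio test recovered 53% with 1 false call among 2265 pairs. Replicates were compared by a chi-square of their counts (4.36 to 9.8 per degree of freedom in 24 pairs), so none agree within sampling noise. Same-numbered libraries departed from their group means together between any 2 groups, with r above 0 throughout (0.0188 to 0.247). Only for si45 and si47 was r over 0.1 in all 4 pairs (0.12 to 0.242). The ranges of si45 with si46 (0.0716 to 0.247) and si46 with si47 (0.0854 to 0.209) overlap that one. The labels give no pairing, so the main fit has no block and the blocked fit is an alternative. Alternatives were other scaling factors, DESeq2 1.42.0, limma-voom, other filters and thresholds, a replicate block, fewer groups, and leaving out each library.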

Additional observations from a re-analysis of the deposited data

Results flagged for a closer look

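Among 132 groups of 4 libraries examined for the named antisense RNAs, 3 held a library far from the other 3, while chance flags about 1 in 20 groups. GATA3-AS1 was at 48.1 CPM in siNTC replicate 1, against 56.7 to 57.4 CPM in the other controls. CDK6-AS1 was at 97.5 CPM in si45 replicate 2, against 74.5 to 77.5 CPM. TMPO-AS1 was at 5.46 CPM in si46 replicate 2, against 6.40 to 6.58 CPM. EMC3-AS1 differed between 2 siRNAs against the same target, by -0.50 on the log2 scale in si47 against si45.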

How the results depend on the processing

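At an adjusted p under 0.01, the numbers called were 7 (mean of the 3 siRNAs), 1 (si45), 3 (si46), 9 (si47) and 0 (si47 against si45), with 6 partners and 5 pair ratios. With at least 10 counts in every library, which tests fewer genes, 11 were called in the mean and 4 ratios. Without a filter, 6 were called under si45, 2 in si47 against si45 and 1 in si47 against si46. limma-voom called 7 under si46, and DESeq2 3 in si47 against si45 and 1 in si47 against si46. Fitting only the groups compared gave 0 in si47 against si45. A flat prior variance gave 5 ratios, and a minimum mean count of 20 also 5. With the replicate block the numbers were 10 (si45), 3 (si47 against si45), 2 (si47 against si46), 37 partners and 14 ratios, and it changed none of the calls of the 17 in the mean contrast and added 7 (EMC3-AS1, GABPB1-AS1, HAND2-AS1, MRPL20-AS1, SH3BP5-AS1, TDRKH-AS1 and ZNF460-AS1), 24 in all (10.5%, beside 12.8% of all genes in the blocked fit). DESeq2 also called HAND2-AS1 and ZNF460-AS1 there, but not EMC3-AS1 or GABPB1-AS1.

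Leaving out 1 library gave 10 to 20 in the mean, 0 to 5 under si45, 5 to 14 under si46, 11 to 27 under si47, 0 to 2 in si47 against si45, 0 to 1 in si47 against si46, 9 to 24 partners and 7 to 13 ratios. The cause was not tested. For the other settings and the fits without 1 library, the share of all genes called was counted only with the replicate block. Whether calls among the antisense RNAs moved more than those of all genes therefore cannot be told from these numbers. ZEB1-AS1 changed sign, to -0.0145 with limma-voom and to between -0.0859 and 0.125 without 1 library. Of the named antisense RNAs called in the mean, those that passed without any 1 library were GAS6-AS1, GTF2A1-AS1, ZNF528-AS1, ZNF561-AS1, SLC16A1-AS1, SREBF2-AS1 and DYRK3-AS1. GAS6-AS1 and DYRK3-AS1 had a mean siNTC count under 10, so the level rule itself favoured their rise. By the names in GENCODE v29, an alternative chosen after seeing the data, 184 genes met the rule, 165 of them among the 229. The depth limits the low RNAs: on simulated 2-fold changes 20.3% with a mean count under 50 were recovered in the mean contrast.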

Other observations

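Other classes of RNA named after a neighbouring gene were counted in the same fit. Of 160 tested genes with the suffix -DT, which are divergent transcripts starting beside a promoter, 9 rose and 0 fell in the mean of the 3 siRNAs (5.62%, beside 3.61% and 3.53% of all genes higher and lower), with a median log2 fold change of 0.27 and 126 of 160 above 0. The 9 were BMP2K-DT, BTG1-DT, CARHSP1-DT, DNAJC3-DT, E2F5-DT, ITPR1-DT, MVP-DT, PCMTD1-DT and TBC1D22A-DT. Under si47, 11 rose and 0 fell (6.88%, beside 4.91% and 4.83% of all genes higher and lower), with a median of 0.39. All genes tested with a mean count under 50 had a median of 0.05 in the mean contrast and 0.07 under si47. Of 19 genes with -AS2 or a higher number, 1 rose in the mean contrast (5.26%, beside 7.14% of all genes called), LIF-AS2, named after the cytokine LIF. Of 28 genes with -IT, which lie in an intron of the gene they are named after, 0 were called by edgeR in the mean contrast (1 at an unadjusted p under 0.05), with a median of -0.07, and under si47 of -0.22. Of 5 with -OT, which overlap it on the same strand, 0 were called in the mean contrast by edgeR (1 at an unadjusted p under 0.05, median -0.27), and MUC20-OT1 fell under si47.

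Of 22 genes of nuclear RNA turnover, which degrade many unstable antisense and divergent RNAs, 2 were called in the mean contrast (9.09%, beside 7.14% of all genes). ZFC3H1, of the PAXT connection to the exosome, rose and EXOSC9, an exosome subunit, fell. Their log2 fold changes were 0.39 and -0.28 (edgeR adjusted p = 0.013 and 0.031). The median of the 22 was -0.02. The part of these genes in the changes of antisense RNAs was not tested.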
